A study of Mus musculus with 51 samples.

Results

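The genes of MHC class I antigen presentation were followed through meiotic prophase I of mouse spermatocytes in lists of histone modification peaks. The 7 genes were H2-K1, H2-D1, B2m, Tap1, Tap2, Tapbp and Nlrc5, out of 20698 protein-coding genes with a coding transcript on chromosomes 1 to 19. They were chosen by their function and on peak calls and peak widths already seen in these lists, so that their calls are described here without a test. A gene was called in a list when a peak overlapped by at least 1 bp the window from 500 bp before to 500 bp after the 5′ end of any of its protein-coding GENCODE M21 transcripts on mm10. Each of these 5′ ends is taken as a transcription start site (TSS).

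Class I molecules present peptides from inside the cell on its surface. Peptides made by the proteasome are pumped into the endoplasmic reticulum by the TAP transporter, are loaded with the help of tapasin onto a class I heavy chain paired with beta-2-microglobulin, and travel with it to the surface. The genes are induced by interferons, and NLRC5 drives their transcription through a conserved promoter module. Germ cells of the seminiferous tubule are known for low class I levels at the surface. H3K4me3 and H3K9ac are marks of active promoters, and H3K4me2 spreads more widely around promoters and enhancers.

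Nuclei came from the testes of adult wild-type C57Bl/6J males. They were fixed with formaldehyde, stained for intranuclear proteins and sorted by flow cytometry into 5 stages, leptonema (LE), zygonema (ZY), early pachynema (EP), late pachynema (LP) and diplonema (DI). The first was sorted with SCP3 and STRA8, and the other 4 stages in a separate sort with SCP3, H1t and SCP1. ChIP-Seq gave 20 lists: 10 with the EpiCypher H3K4me3 antibody, from experiments 1 and 2 of each stage, 5 with the Abcam antibody of experiment 2, named H3K4me2/3 here since it also recognises H3K4me2, and 5 with an H3K9ac antibody in experiment 1. The sorted populations were enriched and not pure, and all carried the same genotype with no treatment.

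The H3K4me3 lists held from 4883 to 15699 peaks, the H3K4me2/3 lists from 17561 to 30943, and the H3K9ac lists from 516 to 16003. A list holds no score or read count, so the depth behind a call is unknown, and the mark can be present at a site where no peak was called. In such bulk lists, fewer nuclei with the mark and less of it in each nucleus cannot be told apart. Among the markers of meiosis, 6 of 6 genes had an H3K4me3 peak in both leptonema lists, beside 38.1% of all genes. Stra8, whose product was used to sort leptonema, had one in these 2 lists and in none of the other 8. It is 1 of 8 spermatogonial markers. Of these, 3 and 4 had an H3K4me3 peak in leptonema experiments 1 and 2, where 38.7% and 46.3% of all genes had one. In early pachynema 0 had one in either list, beside 33.6% and 25.2% of all genes. From leptonema to diplonema 7, 7, 3, 4 and 3 had an H3K4me2/3 peak, beside 64.7%, 59.4%, 53.7%, 55.4% and 53.3% of all genes. Of 7 macrophage and leukocyte markers, which include Ptprc and Csf1r, 0 had an H3K4me3 or H3K9ac peak in any list, and Cd14 alone had H3K4me2/3 peaks, in 4 of 5 lists with leptonema among them. Of 5 Sertoli cell markers, Sox9, Wt1 and Gata4 had an H3K4me3 peak in leptonema experiment 2, Wt1 also in zygonema experiment 2, and Amh and Cldn11 in no list. With H3K4me2/3 the Sertoli markers called numbered 4 in leptonema, 2 in zygonema and 1 at each later stage. Of 3 peritubular myoid and 4 endothelial markers, 0 had an H3K4me3 peak, and 2 and 1 had an H3K4me2/3 peak in at least 1 list. Of 5 Leydig cell markers, 1 had an H3K4me3 peak and 1 an H3K4me2/3 peak in at least 1 list. For 6 spermatid markers these numbers were 0 and 2, and for the 20698 genes 11204 and 13897. The part of other cells in the calls below was not tested.

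Promoter sequences are shown for 5 members. The sequences are RefSeq promoters on GRCm38.p6, 250 bases before and 50 after the RefSeq start, and the table used holds none for Tap2 and Nlrc5. Not every peak described below overlaps them. In leptonema experiment 1 the H3K4me3 peaks began 110 bp past the RefSeq start at H2-K1 and 97 bp past it at H2-D1. Capitals mark exact matches on either strand to the X2 box core TGACG, the Y box core ATTGG, the kappaB letters GGGNNTTNCC, the interferon response element letters TTTCNNTTTC, the GAS letters TTCNNNGAA, TATAAA and the GC box GGGCGG. H2-K1 lies at chr17:34000298-34000597 on the minus strand, and the others lie on the plus strand, H2-D1 at chr17:35262844-35263143, B2m at chr2:122147437-122147736, Tap1 at chr17:34187306-34187605 and Tapbp at chr17:33919228-33919527.
H2-K1: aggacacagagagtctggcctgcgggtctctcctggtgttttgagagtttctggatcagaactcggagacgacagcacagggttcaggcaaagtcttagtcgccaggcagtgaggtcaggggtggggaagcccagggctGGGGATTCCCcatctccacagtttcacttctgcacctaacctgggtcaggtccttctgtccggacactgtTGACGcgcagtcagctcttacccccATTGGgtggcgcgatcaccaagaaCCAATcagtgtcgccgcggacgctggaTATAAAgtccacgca
H2-D1: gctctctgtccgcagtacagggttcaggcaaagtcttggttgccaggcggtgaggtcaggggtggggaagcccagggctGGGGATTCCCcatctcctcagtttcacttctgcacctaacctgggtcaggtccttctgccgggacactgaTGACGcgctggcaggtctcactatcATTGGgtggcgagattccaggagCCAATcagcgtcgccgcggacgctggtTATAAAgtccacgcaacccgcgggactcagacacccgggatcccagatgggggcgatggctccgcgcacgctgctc
B2m: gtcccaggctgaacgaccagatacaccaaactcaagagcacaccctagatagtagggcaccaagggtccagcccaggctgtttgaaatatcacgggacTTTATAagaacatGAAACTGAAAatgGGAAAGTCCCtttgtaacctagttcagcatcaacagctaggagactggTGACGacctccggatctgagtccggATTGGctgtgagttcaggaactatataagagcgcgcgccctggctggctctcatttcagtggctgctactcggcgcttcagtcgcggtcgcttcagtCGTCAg
Tap1: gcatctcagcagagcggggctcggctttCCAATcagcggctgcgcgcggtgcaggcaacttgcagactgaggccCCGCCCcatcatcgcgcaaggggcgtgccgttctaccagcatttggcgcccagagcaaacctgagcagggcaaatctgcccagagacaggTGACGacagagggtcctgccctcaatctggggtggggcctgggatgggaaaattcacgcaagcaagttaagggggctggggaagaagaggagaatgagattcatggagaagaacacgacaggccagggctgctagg
Tapbp: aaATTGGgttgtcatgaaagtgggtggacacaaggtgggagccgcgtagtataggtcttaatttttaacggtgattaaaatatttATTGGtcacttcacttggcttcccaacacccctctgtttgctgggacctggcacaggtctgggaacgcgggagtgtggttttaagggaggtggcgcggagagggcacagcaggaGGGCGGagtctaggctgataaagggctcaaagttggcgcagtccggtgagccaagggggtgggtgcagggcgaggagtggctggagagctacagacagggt

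The promoters of H2-K1, H2-D1 and B2m shared an arrangement that Tap1 and Tapbp did not have. In all 3, an X2 box core was followed by a Y box core that began 25 bases further on. With the start base as position 0, the X2 core began at -41 in H2-K1, at -101 in H2-D1 and at -78 in B2m. H2-K1 has 2 promoter entries, of which the first is shown. In the other, the X2 core began at -55, with the same spacing. The 2 cores at this spacing, on either strand, were found in 31 of the 32851 promoters of the table (0.0944%), which belong to 27 genes. H2-M3, a non-classical class I gene, was among them, and no other gene of the lists used here was. Tap1 held an X2 core at -86 and a Y core only upstream of it, and Tapbp held Y cores and no X2 core. Taken singly these letters are common: 20.8% of all promoters hold an X2 core, 37.4% a Y core and 7.73% both. The spacing was looked at after the sequences were seen and is a description.

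The kappaB letters were present in H2-K1, H2-D1 and B2m, against 4.79% of all promoters. The same 3 held TATAAA, in B2m on the minus strand, against 13.6%. The interferon response element letters were found in B2m alone among the 5, at -139, and in 3.44% of all promoters. The GAS letters, present in 8.3% of promoters, were in 0 of the 5, and the GC box, in 35.7%, was in Tap1 and Tapbp. A match marks letters and not a bound site. Only exact matches were looked for, so a promoter without one can still hold a variant of the element. H2-K1 and H2-D1, the classical heavy chains, had 206 identical bases over an aligned stretch of 227 (90.7%). TATAAA began at 35 in H2-K1 and at -26 in H2-D1, so that the RefSeq start of H2-K1 lies upstream of the matching base in H2-D1. The windows held 14 CpG dinucleotides in H2-K1, 19 in H2-D1, 14 in B2m, 15 in Tap1 and 11 in Tapbp, each above the median of 7 over all promoters.

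Of the 7 genes, 5 lie on chromosome 17, with TSSs between 33915899 and 35266021, a span of 1350 kb. B2m lies on chromosome 2 with a TSS at 122147686, and Nlrc5 on chromosome 8 with TSSs from 94434391 to 94525067. Because H2-K1 and H2-D1 belong to a family of similar genes, words of 50 bases within 500 bp of the RefSeq starts were looked up on chromosome 17. Of 96 words, 7 recurred elsewhere on the chromosome for H2-K1 (7.29%), 4 for H2-D1 (4.17%) and 0 for Tap1, Tap2 and Tapbp.

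The classical heavy chain genes carried an H3K4me3 peak in leptonema that was not called in pachynema. At H2-K1, which has 8 TSSs between 33997485 and 34000347 on the minus strand, the peak was 916 bp wide in leptonema experiment 1 and 2277 bp in experiment 2. In zygonema no peak was called in experiment 1, and a peak of 209 bp in experiment 2 lay from 682 to 890 bp inside the gene. None was called in either list of early or late pachynema or in diplonema experiment 1, and diplonema experiment 2 had a peak of 1054 bp. Only the 2 leptonema libraries and 1 library each of zygonema and diplonema thus had a call.

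At H2-D1, with TSSs at 35262730 and 35266021, the H3K4me3 peak measured 1132 bp and 2159 bp in leptonema experiments 1 and 2. It was not called in the 2 zygonema lists, the 4 pachynema lists or diplonema experiment 1, and diplonema experiment 2 had a peak of 282 bp. In leptonema experiment 2 the peaks of both genes were among the wider ones, at percentiles 96.7 for H2-K1 and 96 for H2-D1 among peaks at coding TSSs of that list. In diplonema experiment 2 the percentiles were 60.2 and 10.3. In the same experiment, the ratio of diplonema to leptonema width was 0.463 at H2-K1 and 0.131 at H2-D1, against a median of 1.1 over the 8135 genes called in both lists. Since the members were chosen on widths too, nothing is read from this difference.

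This pattern was uncommon among all genes. A peak in both leptonema lists and in none of the 4 pachynema lists was found for 2 of the 7 members, H2-K1 and H2-D1, and for 720 genes or 3.48% of all. With the peak in diplonema experiment 2 added, both members remained, and 265 genes or 1.28%. Since the members were chosen on these calls, nothing is read from the difference.

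B2m, which encodes the light chain beta-2-microglobulin, had 1 H3K4me3 peak in the 10 lists. It was 163 bp wide, in leptonema experiment 2, at percentile 1.68 of its list, and lay entirely in an intron, from 204 to 366 bp past the RefSeq start. The nearest peak in the other 9 lists was at least 10691 bp away.

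**Figure D1:**
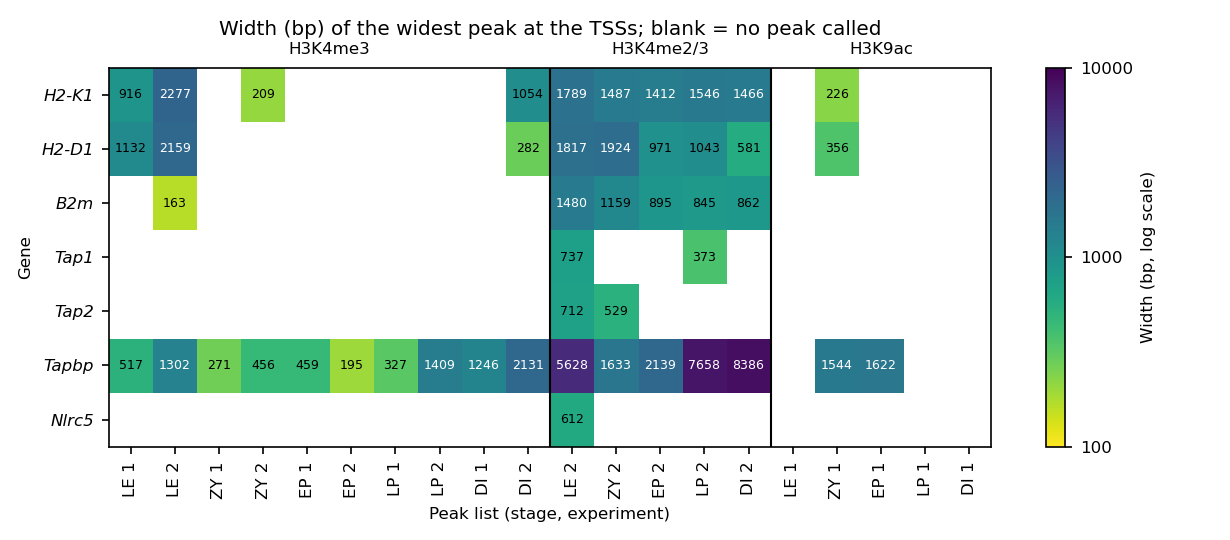
Width in bp of the widest peak called at the TSSs of each gene (rows) in each of the 20 lists (columns, stage and experiment), with colour on a log scale and blank cells where no peak was called. H2-K1 and H2-D1 have H3K4me3 peaks in both leptonema lists and in none of the 4 pachynema lists, while their H3K4me2/3 peaks are present in all 5 lists.

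The transporter genes Tap1 and Tap2 and the transactivator gene Nlrc5 had no H3K4me3 peak in any of the 10 lists. This held for 3 of the 7 members and, at a share near theirs, for 45.9% of all genes. At Tap1 the nearest H3K4me3 peak was between 52076 and 68263 bp away, and at Tap2 between 58666 and 84237 bp. At Nlrc5 it was between 7851 and 47685 bp away, and nearest in the experiment 2 lists of diplonema (7851 bp), late pachynema (7946 bp) and leptonema (8002 bp). Distances were taken from the closest TSS of the gene. The last Nlrc5 TSS, at 94525067, lies 90732 bp past its RefSeq start. It is 7923 bp from the TSS of Cpne2, which was called in these 3 lists.

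Tapbp, the gene of the loading chaperone tapasin, was called in all 10 H3K4me3 lists, as were 18.0% of all genes. These calls do not all belong to its own start. Of its 5 coding TSSs, those at 33915899 and 33916186 lie beside the TSS of the zinc finger gene Zbtb22, 5 bp away at the closest, and in 10 of the 10 lists 1 peak overlapped the 500 bp windows of both genes. At the 3 TSSs around the RefSeq start, 33919478, a peak was called in 4 lists only. It measured 803 bp in leptonema experiment 2, 1409 bp in late pachynema experiment 2, and 1246 bp and 1645 bp in diplonema experiments 1 and 2. At its own start Tapbp was thus called in both diplonema libraries, and in 1 of 2 in leptonema and late pachynema.

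**Figure D2:**
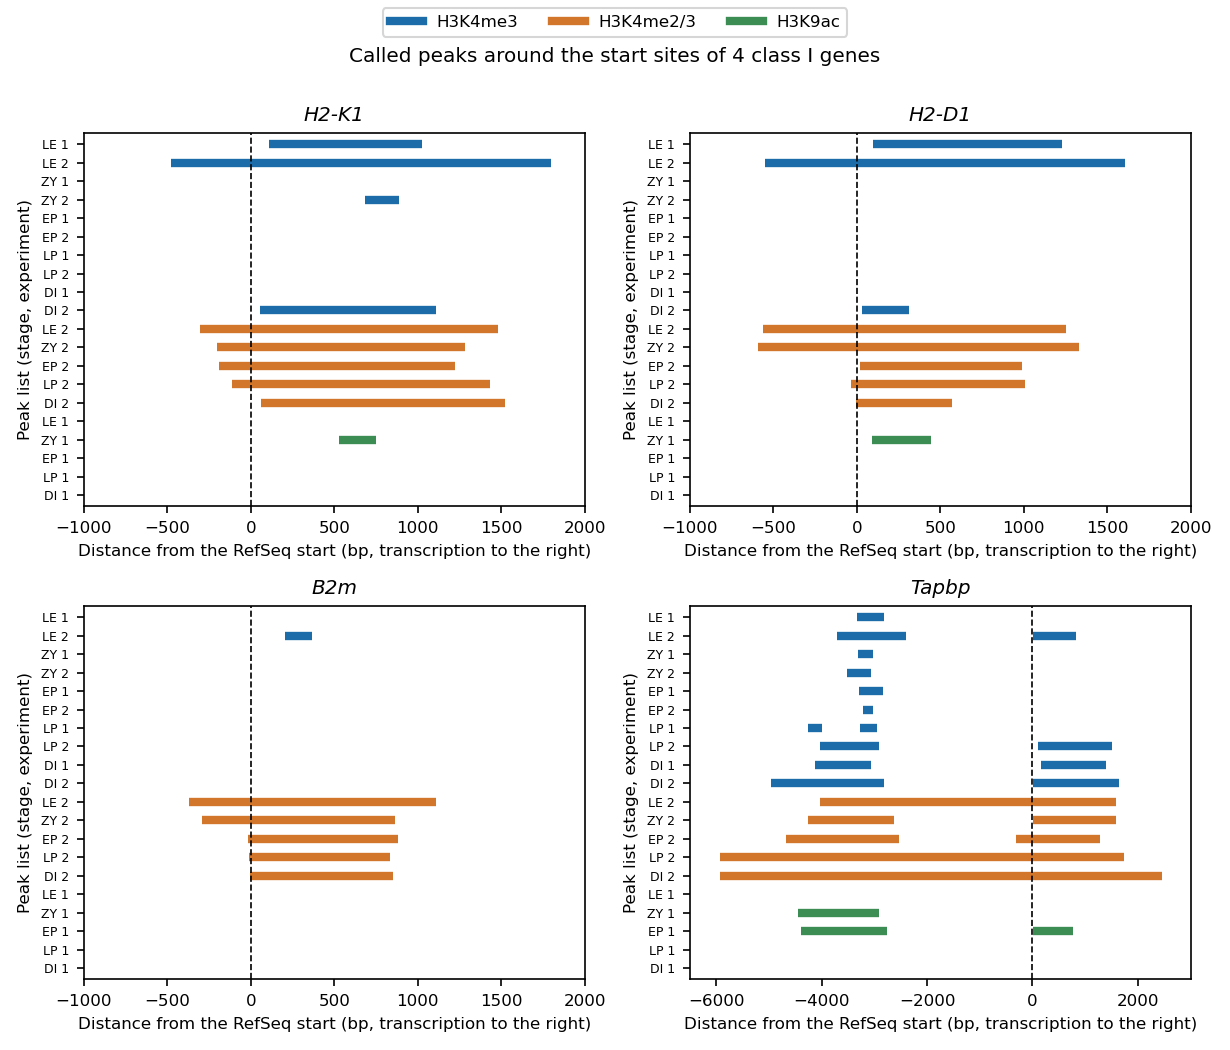
Extent of every called peak at H2-K1, H2-D1, B2m and Tapbp, in bp from the RefSeq start (dashed line, transcription to the right), with 1 row for each list and colours for the 3 antibodies. At H2-K1, H2-D1 and B2m the peaks lie mostly downstream of the start, and at Tapbp the peaks in the 10 H3K4me3 lists lie about the start shared with Zbtb22, with a further peak at its own start in 4 lists.

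Counted by library, H3K4me3 peaks were called at 3 of the 7 members in leptonema experiment 1, where 38.7% of all genes were called, and at 4 in experiment 2 (46.3%). The zygonema numbers were 1 (36.2%) and 2 (35.3%). Each early pachynema list (33.6% and 25.2%) and each late pachynema list (26.4% and 39.7%) had 1, and the diplonema lists had 1 (28.7%) and 3 (46.0%). A peak in both libraries was called at 3 members in leptonema, where 38.1% of all genes met this rule. From zygonema on, 1 member, Tapbp, met it at every stage, beside 32.4% of all genes in zygonema, 24.9% in early and 25.8% in late pachynema, and 28.6% in diplonema. The members' leptonema share of 3 of 7 is close to that of all genes.

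List length moved with some of these calls. The lists of experiment 2 were the longer in leptonema, with 13095 against 9528 peaks, and in diplonema, with 12071 against 6645. The B2m call and the diplonema calls of H2-K1 and H2-D1 were all in these longer lists. Zygonema experiment 1, the longest H3K4me3 list with 15699 peaks, had none at H2-K1, H2-D1 or B2m, and late pachynema experiment 2, with 9124 peaks, had none there either. At coding TSSs, however, zygonema experiment 1 held 6741 peaks, against 7225 and 8874 in leptonema experiments 1 and 2. With the 4883 widest peaks of every list, H2-K1 and H2-D1 were still called in both leptonema lists, H2-K1 also in diplonema experiment 2, and B2m in none. The part of depth and purity in these calls was not tested.

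With the H3K4me2/3 antibody, all 7 members had a peak in leptonema. The share of all genes called in that list, the longest of the 5, was 64.7%. In zygonema 5 members were called (59.4% of all genes), then 4 in early (53.7%) and 5 in late pachynema (55.4%), and 4 in diplonema (53.3%). With equal list sizes, 4 members were called in leptonema and 4, 4, 5 and 4 at the following stages, and Tap1 was then called in late pachynema only. There was 1 library for each stage, so that differences between stages have no replicate check. H2-K1, H2-D1, B2m and Tapbp were called at all 5 stages, as were 47.8% of all genes. With a window of 250 bp or an overlap of at least 200 bp, H2-D1 was called in 2 of the 5 lists, leptonema and zygonema. Its TSS at 35262730 lies at position -364 relative to the RefSeq start, and with the RefSeq start only it was called in all 5. H2-K1, H2-D1 and B2m combined calls at all 5 stages with no H3K4me3 peak in the 4 pachynema lists, a combination of 7.23% of all genes.

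At H2-K1 the H3K4me2/3 peak measured 1789 bp (leptonema), 1487 bp (zygonema), 1412 bp (early pachynema), 1546 bp (late pachynema) and 1466 bp (diplonema). The widths lay close together, and the upstream edge moved from position -304 relative to the RefSeq start in leptonema to position 60 in diplonema. H2-D1 had 1817 bp in leptonema and 1924 bp in zygonema, followed by 971 bp, 1043 bp and 581 bp in early pachynema, late pachynema and diplonema. The part upstream of the start was called in leptonema and zygonema, and the later peaks began at 21, -36 and -7. B2m had 1480 bp, 1159 bp, 895 bp, 845 bp and 862 bp in the same order. Its last 3 peaks began at -15, -10 and -7, while those of the first 2 stages began at -368 and -293.

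From leptonema to diplonema the H3K4me2/3 width thus went down at the 3 heavy and light chain genes while the median over all genes went up. The ratio of diplonema to leptonema width was 0.819 at H2-K1, 0.32 at H2-D1 and 0.582 at B2m. Over the 9900 genes called at all 5 stages the median ratio was 1.23, and 34.6% of them were narrower in diplonema. A lower ratio than that of H2-D1 was found for 3.62% of these genes, than that of B2m for 12% and than that of H2-K1 for 23.8%. The ratio at Tapbp was 1.49, with a lower one at 65.4% of the genes. With 1 library for each stage and members chosen on widths too, nothing is read from these differences. Median widths over the 9900 genes were 1539, 1418, 1322, 1864 and 1937 bp from leptonema to diplonema in stage order.

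**Figure D3:**
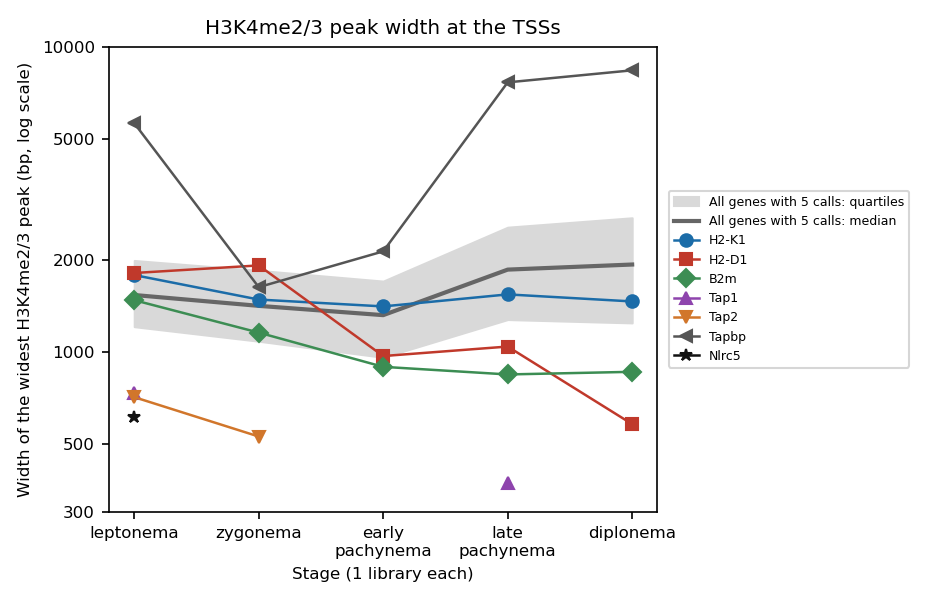
Width in bp (log scale) of the widest H3K4me2/3 peak at the TSSs of each member by stage, with 1 library for each stage, and the median (grey line) and quartiles (grey band) of the 9900 genes called at all 5 stages. B2m sits below the median at all 5 stages, H2-D1 from early pachynema on and H2-K1 in late pachynema and diplonema, and points are missing where no peak was called.

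Tap1, Tap2 and Nlrc5 had an H3K4me2/3 peak in leptonema and none in diplonema, which held for 12.8% of all genes. The peak at Tap1 was 737 bp in leptonema and 373 bp in late pachynema, and none was called at the other 3 stages. The start of Tap1 lies 334 bp from the divergent start of Psmb9, which encodes an immunoproteasome subunit, and 38 bp at the closest between any of their TSSs. In both lists 1 peak overlapped the windows of both genes and cannot be given to either. Tap2 had 712 bp in leptonema and 529 bp in zygonema, and Nlrc5 had 612 bp in leptonema only. These peaks were narrow for their lists, at percentiles 13.6 and 5.35 for Tap1, 12.7 and 10.7 for Tap2 and 9.02 for Nlrc5. Among the wider peaks of each list, none of the 3 genes was called.

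At Tapbp a single H3K4me2/3 peak ran over both groups of TSSs in leptonema (5628 bp), late pachynema (7658 bp) and diplonema (8386 bp). In zygonema and early pachynema the groups had separate peaks, of 1633 and 1562 bp and of 2139 and 1606 bp. The H3K4me2/3 peaks came within 500 bp of the RefSeq start of Tapbp at all 5 stages, against 4 of 10 lists for H3K4me3.

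The H3K9ac lists had peaks at 3 members in zygonema, where 41.1% of all genes were called, and at 1 in early pachynema (35.3%). No member was called in leptonema (14.8%), late pachynema (8.28%) or diplonema (1.99%). There was 1 list for each stage, and the lists of leptonema, late pachynema and diplonema held 2823, 1727 and 516 peaks, against 16003 in zygonema and 7744 in early pachynema. In zygonema the peak was 226 bp at H2-K1 and 356 bp at H2-D1, at percentiles 3.77 and 9.33 of the list. Tapbp had 1544 bp at the start shared with Zbtb22 in zygonema, and 1622 bp there and 764 bp at its own start in early pachynema. B2m, Tap1, Tap2 and Nlrc5 had no H3K9ac peak in any list, like 56.6% of all genes.

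Peaks at H2-K1, H2-D1 and B2m lay mostly over exons and introns of the gene rather than upstream. In leptonema experiment 1 the H3K4me3 peak of H2-K1 was 65.4% exonic and 34.6% intronic, and that of H2-D1 48.2% exonic and 51.8% intronic, with no base outside the gene in either. In experiment 2 the share outside the gene was 20.9% at H2-K1 and 8.71% at H2-D1. At B2m the H3K4me2/3 peak of leptonema was 8.04% exonic, 67.2% intronic and 24.8% upstream of the gene, and that of diplonema was 85.5% intronic with 0.696% outside. The leptonema peaks of Tap1 and Nlrc5 lay mostly outside the gene, at 63.2% and 62.9%.

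The nearest gene had the same calls in all 20 lists at Tap1 (Psmb9) and Tapbp (Zbtb22), with which they share peaks, and other calls at the other 5 members. Ring1, with a TSS 24333 bp from H2-K1, was called in 8 of 10 H3K4me3 lists, and Vps52, on its other side, in 10. Ddx39b, 20063 bp from H2-D1, was called in 10, and H2-Q1 on the other side in 0, with H3K4me2/3 in 4 of 5. Next to B2m, Spg11 was called in 8 lists, and Trim69, 13014 bp away, in the 2 diplonema lists. Psmb8, between Tap1 and Tap2, was called in 0 H3K4me3 lists and in 1 list each of H3K4me2/3, in leptonema, and H3K9ac, in zygonema, and H2-Ob, beyond Tap2, in none of the 20 lists. Herpud1, upstream of Nlrc5, was called in 10 H3K4me3 lists and Cpne2, downstream, in 3.

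Other genes of the pathway were taken from lists drawn up with earlier results of these data known. The constitutive catalytic proteasome subunits were called nearly throughout, Psmb5 and Psmb7 in 10 of 10 H3K4me3 lists and Psmb6 in 9. Their interferon-induced counterparts Psmb8, Psmb9 and Psmb10 were called in 0. Of all genes, 18.0% were called in all 10 H3K4me3 lists and 45.9% in none. Of the PA28 activator genes, Psme2 was called in both leptonema lists and zygonema experiment 1, and Psme1 in leptonema experiment 2. With H3K4me2/3, all 5 immunoproteasome and PA28 genes were called in leptonema, and 3, 2, 2 and 0 at the following stages. The shares of all genes in these lists were 64.7%, 59.4%, 53.7%, 55.4% and 53.3%. Among loading factors, the chaperones Canx and Pdia3 were called in 10 H3K4me3 lists and Calr in 9, the peptide-trimming enzyme gene Erap1 in 3, and Tapbpl, a relative of tapasin, in 0.

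Of 15 non-classical class I genes found in the annotation, 2 had an H3K4me3 peak, H2-Q4 and H2-Q6, both in leptonema experiment 2 only, the list that also held the B2m peak. With H3K4me2/3, 9 were called in each of leptonema and zygonema, 7 in early pachynema, and 5 in each of the last 2 stages, beside the 64.7%, 59.4%, 53.7%, 55.4% and 53.3% of all genes called in these lists. H2-M3, H2-Q4, H2-Q6 and H2-Q7 were called at all 5 stages. The median number of H3K4me3 lists with a call was 0 for the 15 genes, 1 for the 7 members and 1 for all genes. Among 9 class II presentation genes, only H2-DMa had H3K4me3, in 8 lists. With H3K4me2/3, H2-DMa was called at 5 stages, H2-Ab1 at 4 and Ciita at 2. Of all 20698 genes, 11204 had an H3K4me3 peak and 13897 an H3K4me2/3 peak in at least 1 list.

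Genes of 11 factors that act on class I promoters were called in a median of 9 H3K4me3 lists. Nfya, Nfyc, Creb1 and Rela, which encode subunits of the Y box factor NF-Y, a factor of the CREB family and an NF-kappaB subunit, were called in all 10 H3K4me3 lists. Nfkb1, the gene of another NF-kappaB subunit, was called in the 4 leptonema and zygonema lists and in diplonema experiment 2, with none in pachynema. Irf1 and Irf2 were called in diplonema experiment 2 alone, and Rfxap in no list of any antibody. Of 7 interferon receptor and kinase genes, 4 and 4 had H3K4me3 in leptonema experiments 1 and 2, 4 and 6 in zygonema, 3 and 2 in early pachynema, 0 and 2 in late pachynema, and 1 and 2 in diplonema. The share of all genes was 38.7% and 46.3% in leptonema, 36.2% and 35.3% in zygonema, and 33.6% and 25.2% in early pachynema. It was 26.4% and 39.7% in late pachynema, and 28.7% and 46.0% in diplonema. Of 14 interferon-inducible genes, 12 had no H3K4me3 peak in any list, beside 45.9% of all genes. The exceptions were Socs1, in 8 lists, and Stat2, in leptonema experiment 2.

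**Figure D4:**
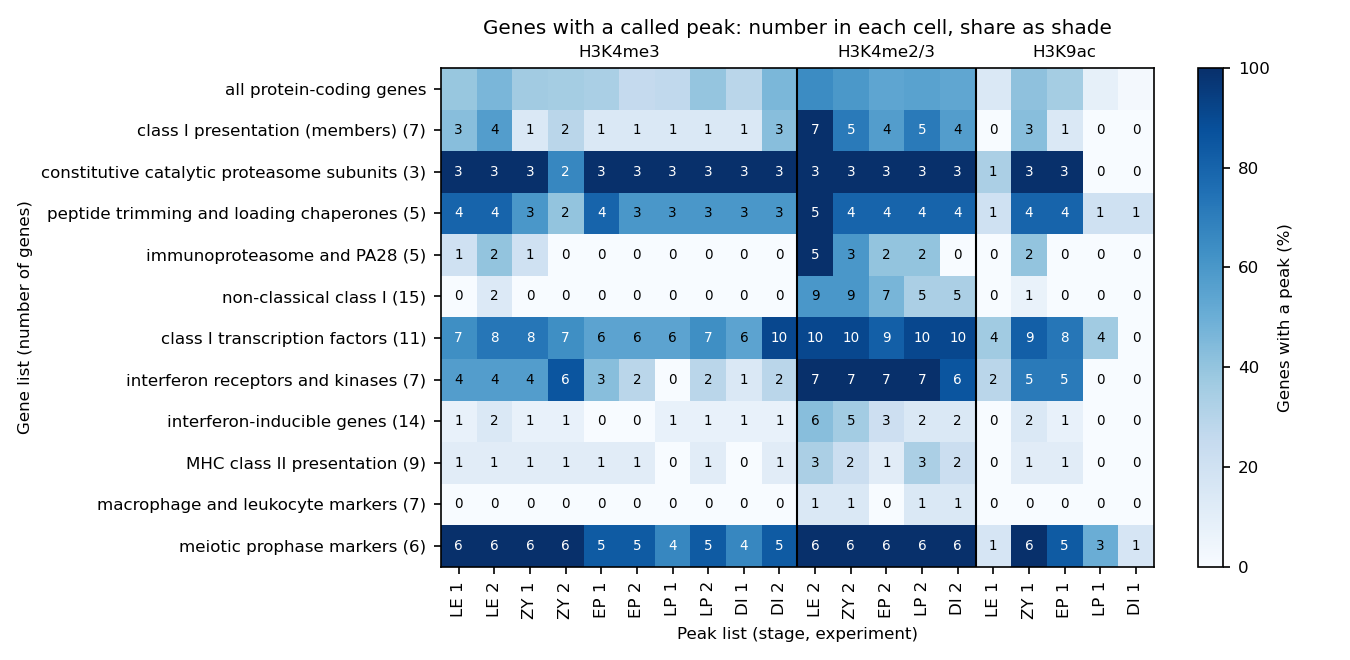
Number of genes with a called peak (in the cells) and their share in percent (shade) for the class I members, related gene lists and reference lists (rows, with the number of genes) in the 20 lists (columns, stage and experiment), beside the share of all protein-coding genes in the top row. The immunoproteasome, non-classical class I and interferon-inducible rows are pale in H3K4me3, while the constitutive proteasome row is called nearly throughout.

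The genes with the same calls in all 20 lists were counted as the closest patterns. Out of 20697 other genes, 19 matched H2-K1, 21 matched H2-D1 and 111 matched B2m. Ranked by the mean absolute difference in width percentile over the lists, the closest to H2-K1 was Rarg (5.39 points), to H2-D1 Galnt12 (7.15 points) and Cdc14a (7.29 points), and to B2m Usp46 (1.34 points). H2-K1 and H2-D1 themselves differed in 1 list, zygonema experiment 2 of H3K4me3. Tap1 was matched by 46 genes, with Psmb9 at a difference of 0 because they share their peaks, Tap2 by 566, Nlrc5 by 707, and Tapbp by 1108, of which Zbtb22 was the closest.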

How the data were processed

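ChIP-Seq peaks were taken as deposited, in 20 lists for 20 of the 51 samples. The other 31 samples were not analysed here. Each file gives chromosome, start and end of each peak on chromosomes 1 to 19, with no score, so that the depth per sample and the precision of a call are unknown. Per the labels and the methods, the authors aligned reads to mm10 with BWA mem 0.7.12 and called peaks of each library separately with MACS2 2.1.2 in broad mode at a q of 0.1, with stage-matched input as control. For H3K9ac the control is not given in the sources used here. The antibody field of the H3K9ac samples names H3K4me3, while the title and catalogue number are those of H3K9ac, which was followed. The spike-in normalization of the study is not part of the lists. A deeper or purer library can give a longer list with wider peaks.

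TSSs were the 5′ ends of protein-coding GENCODE M21 transcripts, with 500 bp on either side and a minimum overlap of 1 bp. The release that the study names was not used here. Calls and widths in bp were computed with Python 3.11.15, numpy 2.4.6 and Biopython 1.88 (local alignment of promoters), and compared with all 20698 genes. The overlap step was tested on simulated peaks and recovered 1000 of 1000 genes. Experiments 1 and 2 of H3K4me3 served as the replicates of a stage, and H3K4me2/3 and H3K9ac had 1 library for each stage. Nothing in the labels says that the experiments used separate animals. The members and gene lists were chosen with earlier results of these data known, and no test was made on them. The named genes are the members, the genes of these lists, the nearest neighbours on either side and the genes with the closest calls. From the list of class I transcription factors, 1 gene is not reported here. H2-T10 was not among the protein-coding genes of the annotation used. Alternatives were TSS windows of 250 and 1000 bp, an overlap of 200 bp, all transcripts of a gene, the wider peaks of each list, equal list sizes, a peak in either library, leaving out a library, and, added after seeing the data, the RefSeq start only.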

Additional observations from a re-analysis of the deposited data

How the results depend on the processing

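Of 337 values recomputed under the alternatives, 289 stayed within 1.5 times the value reported and 48 moved. Many of those that stayed are values of 0, such as the number of H3K4me3 lists at Tap1, Tap2 and Nlrc5. A narrower window, a larger overlap or fewer peaks can only remove calls, so a 0 could not move under them. Members with an H3K4me3 peak in both libraries numbered 1 in zygonema, early pachynema, late pachynema and diplonema. In zygonema the number was 0 among the wider peaks, with equal list sizes and at the RefSeq start only, and 2 with a peak in either library. In early pachynema it was 0 with an overlap of 200 bp, among the wider peaks and at the RefSeq start only, and in late pachynema 0 under the last 2 of these. In diplonema it was 3 with a peak in either library. Without 1 of the libraries, the zygonema number lay between 1 and 2 and the diplonema number between 1 and 3, the higher values without experiment 1. The H3K4me2/3 number in leptonema was 4 among the wider peaks and 4 with equal list sizes, and among the wider peaks it was 2 in late pachynema and 2 in diplonema. The H3K9ac number in zygonema was 1 with a window of 250 bp, among the wider peaks and at the RefSeq start only, and 0 with equal list sizes. With a window of 250 bp or an overlap of 200 bp, the H3K4me3 calls at H2-D1 fell from 3 lists to 1, leptonema experiment 2. The H3K4me2/3 calls there fell from 5 to 2 under the same settings. At the RefSeq start only, H2-D1 kept 3 H3K4me3 and 5 H3K4me2/3 calls. No call differed with a window of 1000 bp or with all transcripts of a gene. The RefSeq start setting was chosen after seeing the data. The cause of these moves was not tested. No paired analysis was possible because no result comes from a test. The lists hold no depth, so a missing call is no measure of a missing mark.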
